A study of Pseudotsuga menziesii with 26 samples.

Results

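The longest assembled transcripts of the Douglas-fir (Pseudotsuga menziesii) needle transcriptome are described here across 4 exposure atmospheres and by sequencing depth. They were chosen as the identifiers psme_t000001 to psme_t000300 that had at least 100 raw counts summed over the 26 libraries. Of 173882 transcripts listed in the count table, 34569 reached 100 summed counts. Among identifiers 1 to 300, 199 were listed, 4 of them with 0 counts and 12 with between 1 and 99, which left 183 members. The rule uses the identifier number, which follows length, and the summed count, and neither refers to the exposure groups. For most members, though, the sum came mainly from the libraries with the most counts, and these were unevenly spread over the groups. Just inside the limit were psme_t000076 with 124 summed counts, psme_t000259 with 147 and psme_t000099 with 177. Just outside were psme_t000158 with 90, psme_t000231 with 45 and psme_t000292 with 43.

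The libraries came from polyA-selected RNA of lateral-stem needles grown in 2011 and sampled in 2012, when growth was dormant, on potted seedlings related as half-siblings. Air Control seedlings (n = 6) were kept in air cleaned with charcoal, Purafil and a HEPA filter, DE seedlings (n = 7) received the emissions of burnt diesel fuel, and DECe seedlings (n = 7) received those of diesel fuel with CeO2 nanoparticle catalysts. DECe Gas Phase seedlings (n = 6) received the DECe emissions after HEPA filtration. The regime was 6 h a day and 5 days a week over 2 weeks for every group, with clean air between exposures and 16 h of light a day. Every group had 1 chamber, so atmosphere and chamber cannot be told apart, and a p-value measures the spread among seedlings of 1 chamber. The identifiers carry no gene names, so no function is given to a member and the needle label was not checked against marker genes.

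A transcriptome assembly joins short reads into longer sequences, and its longest entries can be mRNAs of very large proteins or sequences joined from several sources. In the flowering plant Arabidopsis thaliana, very long mRNAs include those of BIG, a giant protein needed for auxin transport, and of midasin, a ribosome assembly ATPase. At the same number of molecules a long RNA gives more fragments than a short one, so levels are compared between transcripts per length, as reads per kilobase of transcript scaled to library size (RPKM). RPKM divides by the library's total count, so a few very abundant transcripts in a library lower the RPKM of all others in it.

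Lengths were computed from the ratio of counts to RPKM. The 183 members ran from 35465 nt (psme_t000002) down to 7524 nt, with a median of 8426 nt, against a median of 1817 nt over all transcripts with 100 summed counts. The next longest members were psme_t000004 (24082 nt), psme_t000005 (22689 nt), psme_t000006 (20934 nt) and psme_t000012 (17083 nt). Only 4 members passed 20000 nt and 45 passed 10000 nt. Length fell with identifier number almost without exception (Spearman rho −0.999969 across the 183 members, which are not independent replicates). The rounding of RPKM gave an uncertainty of 0.0298% in the median member's length and of at most 0.877%.

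Depth differed strongly between libraries. The smallest total was 2467403 counts (DE replicate 8) and the largest 60457187 (DECe replicate 3). Libraries with fewer than 10000000 counts, called shallow here, numbered 6 of the 7 DE and 3 of the 7 DECe libraries and 2 of those of DECe Gas Phase, and Air Control had 0. The other 15 are called deep. Depth and the DE atmosphere can therefore hardly be told apart, and DE replicate 5 was the only deep DE library. Air Control replicate 14 and DECe Gas Phase replicate 4 also stood apart, because 1 member took 32.3% and 39.6% of their counts, as described next. The factors of the trimmed mean of M-values (TMM) scaling, which adjusts for unequal composition, ran from 0.0614 to 4.36, so a level in CPM, counts scaled to 1000000 of the TMM-adjusted library size, and a level in RPKM can order the same libraries differently.

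The members held 9.19% of all counts in the 26 libraries together. Their share of a library's counts had a lowest value of 3.47%, a median of 5.69% and a highest value of 34.9% in Air Control. In DE the share ran from 6.42% over a median of 8.77% to 16.0%. In DECe it ran from 3.59% over 6.47% to 10.9%, and in DECe Gas Phase from 3.81% over 5.95% to 45.6%. All 4 ranges overlapped, and the highest values in Air Control and DECe Gas Phase each came from 1 library, replicate 14 and replicate 4, with the next libraries at 6.80% and 9.07%. In bulk needle RNA, fewer cells of a type and less RNA per cell cannot be told apart in such shares.

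A single member, psme_t000146 (8738 nt), held 82.5% of the members' counts. It took 2.82% to 32.3% of a library in Air Control, 3.20% to 15.9% in DE, 2.00% to 10.6% in DECe and 3.66% to 39.6% in DECe Gas Phase. Without it, the members' share was lowest at 0.0811%, 0.209% in the median and highest at 3.21% in DE, where the highest value was that of DE replicate 5. The same quantity ran from 0.654% over 1.48% to 2.63% in Air Control, from 0.174% over 0.788% to 2.16% in DECe, and from 0.151% over 1.29% to 6.03% in DECe Gas Phase. The group medians without psme_t000146 were thus in the reverse order of the shares with it for DE and Air Control. With 6 others (psme_t000085, psme_t000004, psme_t000002, psme_t000006, psme_t000041 and psme_t000005), it formed a set of 7 members whose median reached 100 CPM, a limit chosen after the values were seen. These 7 held 97.7% of the members' counts, and the remaining 176 members had a median of 0.262 over their median RPKM.

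**Figure D1:**
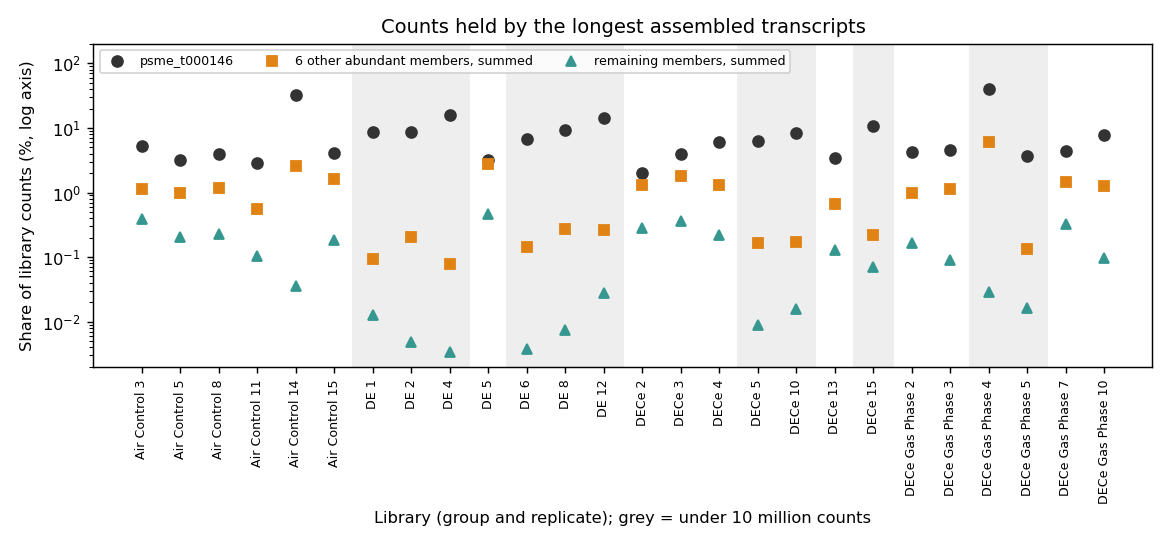
Share of each library's counts (percent, log axis) held by psme_t000146 (circles), by the 6 other abundant members summed (squares) and by the remaining members summed (triangles), with 1 column per library and grey bands for shallow libraries. The triangles lie at 0.0359% to 0.472% in the deep libraries and at 0.00339% to 0.0693% in the shallow ones, while psme_t000146 peaks in Air Control replicate 14 and DECe Gas Phase replicate 4.

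Levels of the 7 abundant members were compared per length. In Air Control, psme_t000146 had a lowest RPKM of 3226, a median of 4679 and a highest of 36980. In DE it ran from 3667 over 9917 to 18189, in DECe from 2291 over 7029 to 12102, and in DECe Gas Phase from 4191 over 5110 to 45315. The ranges of psme_t000146 overlapped in every pair of groups, and its median was higher in the 11 shallow libraries (9917 RPKM) than in the 15 deep ones (4759 RPKM). The second most abundant member, psme_t000085 (10095 nt), ran the other way by depth.

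Its RPKM was lowest at 330, 674 in the median and highest at 1412 in Air Control. In DE psme_t000085 ran from 25.1 over 70.7 to 2082, the highest value being DE replicate 5, the only deep DE library. It ran from 47.9 over 403 to 1334 in DECe and from 42.5 over 809 to 3517 in DECe Gas Phase. By depth, the median of psme_t000085 was 785 RPKM in the deep libraries and 59.7 RPKM in the shallow ones. The groups overlapped, and in DE all 6 shallow libraries lay below every Air Control library.

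The 3 very long members psme_t000002, psme_t000004 and psme_t000041 (12466 nt) formed a band of similar level. Over the 15 deep libraries their median RPKM was 31.7, 58.4 and 40.2, and over the 11 shallow ones 10.2, 25.4 and 9.77. They kept a nearly fixed proportion in the deep libraries, where the RPKM ratio of psme_t000002 to psme_t000004 ran from 0.503 to 0.625 and that of psme_t000002 to psme_t000041 from 0.751 to 0.997. Spearman rho of log2 CPM in the 15 deep libraries, given as a description since the values share library depth and scaling, was 0.911 for psme_t000002 with psme_t000004 and 0.921 for psme_t000002 with psme_t000041. In the 11 shallow libraries the ratio of psme_t000002 to psme_t000004 was lower and wider, at 0.309 to 0.588, and that of psme_t000002 to psme_t000041 was higher and wider, at 0.816 to 1.52.

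In RPKM, the pair psme_t000006 and psme_t000005 fell further in the shallow libraries. On the TMM-scaled level, given below, the direction was the other way for both, without a call. The median of psme_t000006 was 50.3 RPKM over the deep libraries and 2.68 over the shallow ones, and that of psme_t000005 was 16.5 and 1.27. In Air Control psme_t000006 ran from 29.1 over 49.6 to 88.5 RPKM, and in DE from 0.875 over 1.63 to 80.9, the highest again from DE replicate 5. In DECe psme_t000006 ran from 2.68 over 38.6 to 68.0 RPKM, and in DECe Gas Phase from 3.58 over 47.8 to 224. The low end of each exposure group was made of its shallow libraries, apart from DECe Gas Phase replicate 4, which held the highest value of all.

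**Figure D2:**
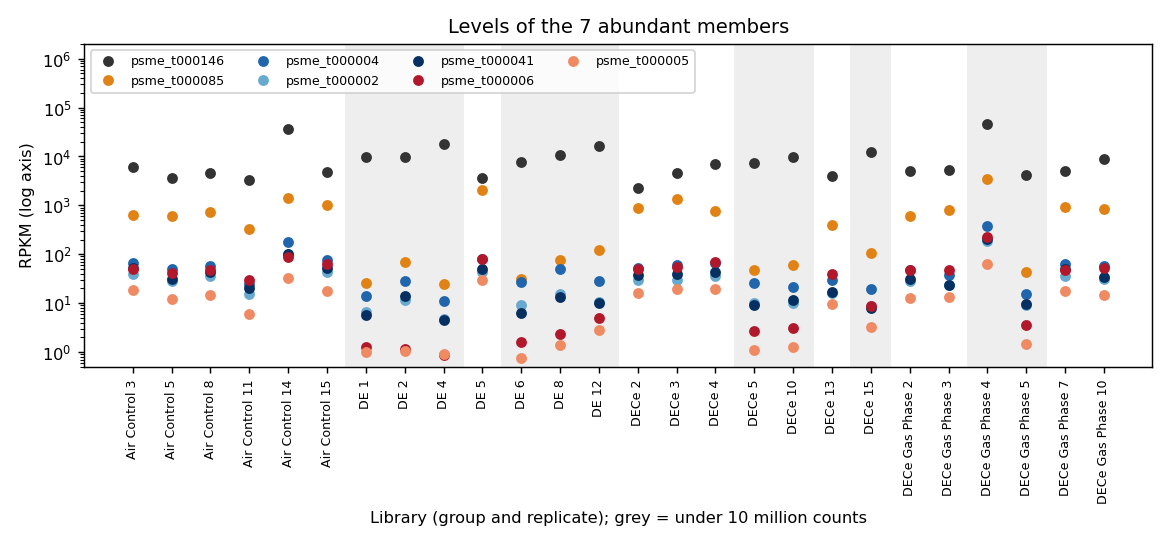
RPKM (log axis) of the 7 abundant members in each library, with grey bands for shallow libraries. All members but psme_t000146 sit lower in most grey columns, and DECe Gas Phase replicate 4 is the grey column in which all 7 are high, with psme_t000146 at 45315 RPKM.

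The number of members with any count differed between the depth classes. The rule itself favours detection in the deep libraries, from which most of the summed counts came. In the 15 deep libraries, 177 to 183 of the 183 members had a count. In the 11 shallow ones, the number was lowest at 52 (DE replicate 4) and highest at 166 (DECe Gas Phase replicate 4). Every deep library therefore detected more members than any shallow one, but within the shallow class the number did not follow the total, with 129 members in DECe replicate 15 (3381425 counts) and 79 in DE replicate 6 (9017951 counts). By group, the lowest, median and highest numbers were 182, 183 and 183 in Air Control, 52, 88 and 183 in DE, 101, 177 and 183 in DECe, and 115, 182.5 and 183 in DECe Gas Phase.

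Total counts were then made equal, while the counts left outside the abundant transcripts were not. When each library was thinned, in expectation, to the 2467403 counts of the smallest one, the deep libraries detected 149.3 to 179.9 members and the shallow ones 37.8 to 143.4. The lowest deep value was that of Air Control replicate 14, where psme_t000146 alone took 32.3% of the counts. The remaining 176 members held between 185 and 2345 counts in a shallow library and between 13364 and 215175 in a deep one. On the TMM-scaled level their sums overlapped, from 413 over 537 to 801 CPM in the shallow and from 358 over 528 to 1090 CPM in the deep libraries. A sum is led by its most abundant members and does not describe the typical one. Of the 178 members tested between the depth classes, 38 had a positive log2 fold change on this level, and the median was −0.65.

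Most members were seen in most plants. Of the 183, 22 had a count in all 26 libraries, 175 had one in all 15 deep libraries, and 2 had none in any shallow library. The median RPKM was lower over the shallow than over the deep libraries for 180 of 183 members (98.4%), and it was 0 over the shallow libraries for 78 (42.6%). Over all transcripts with 100 summed counts the shares were 97.0% and 68.9%, so the lower RPKM was general. A count of 0 in a shallow library says little about a member at its usual level. Taking 3 counts as the limit that a count of 0 allows, which covers counting error only, the limit was 1.06 to 7.19 CPM in the shallow DE libraries. The Air Control median lay under it for 70 to 165 members, depending on the library, against 0 to 5 members in the deep libraries of all groups.

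**Figure D3:**
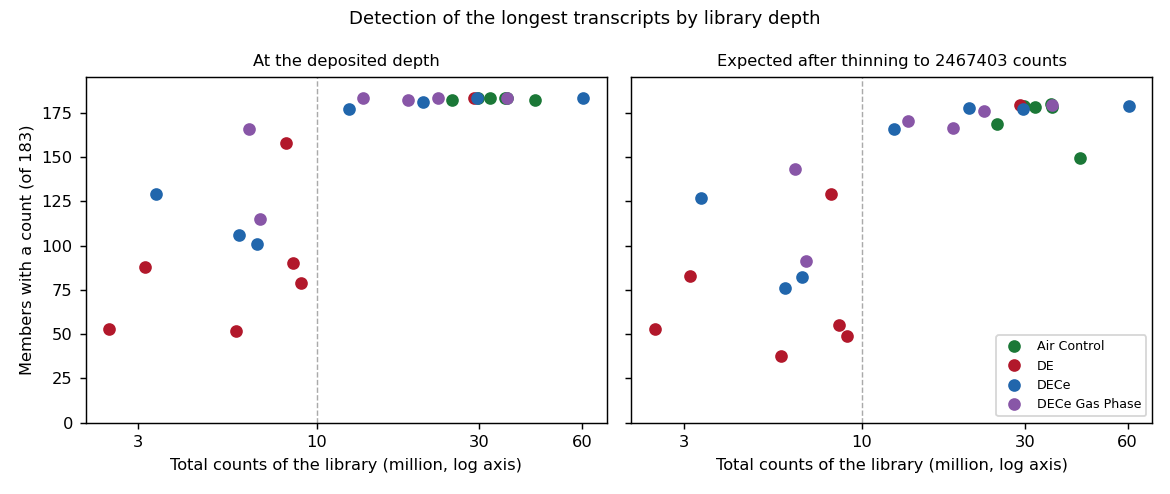
Members with at least 1 count (of 183) against the total count of the library (log axis), at the deposited depth and in expectation after thinning every library to 2467403 counts, with 1 point per library coloured by group and a dashed line at 10000000 counts. As deposited, the points right of the line lie between 177 and 183 and those left of it between 52 and 166, and the 2 clouds remain apart after thinning.

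The depth classes were compared with a quasi-likelihood test (edgeR) over all 26942 transcripts with enough counts, with the exposure group in the model and Benjamini-Hochberg adjusted p-values over all of them. Of the members, 178 were tested and 5 (psme_t000076, psme_t000108, psme_t000144, psme_t000235 and psme_t000259) had too few counts. On the TMM-scaled level, 21 of the 178 members differed at an adjusted p under 0.05, which was 11.8% against 11.7% of all transcripts tested. Higher in the shallow class were 9 members (4.23% of all transcripts were called higher), and lower were 12 (7.46% of all transcripts). The members' median log2 fold change was −0.65, beside −0.64 for all transcripts. A member was therefore called at about the background rate, and the split depends on scaling. With library sizes alone the median of all transcripts was −3.97 and 3 members were called higher and 172 lower. DESeq2 called 16 members (8.99%, against 9.42% of all transcripts) and limma-voom 14 (7.87%, against 7.1%). Without DE replicate 5 the count of called members was 10, without DECe Gas Phase replicate 4 it was 36, and without that library and Air Control replicate 14 it was 35.

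The 2 members called higher that led by fold change were rare. psme_t000033 (13334 nt) had between 3 and 39 counts in every library, whatever the depth. Its count was lowest at 3, 6 in the median and highest at 39 in the 15 deep libraries, and ran from 7 over 16 to 28 in the 11 shallow ones. In CPM it ran from 0.0398 over 0.0700 to 1.19 in the deep class and from 2.30 over 14.4 to 50.3 in the shallow class, so that the classes did not overlap. The log2 fold change came to 6.98 ± 0.72 (SE, edgeR adjusted p = 3.31e-08), and it was 6.87 within the DECe libraries and 6.17 within the DECe Gas Phase libraries. In RPKM the classes of psme_t000033 touched, at 0.011 to 0.067 deep and 0.066 to 0.335 shallow.

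psme_t000099 (9642 nt) also had few counts, at most 39. In CPM it ran from 0 over 0.0291 to 1.07 in the deep libraries and from 0 over 2.29 to 93.5 in the shallow ones. The highest value was that of DE replicate 4, 8 of the 11 shallow libraries lay above all 15 deep ones and 2 were at 0. Between the classes psme_t000099 differed by 5.81 ± 1.47 on the log2 scale (SE, edgeR adjusted p = 0.0113), and without DECe Gas Phase replicate 5 the adjusted p was 0.0761.

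Of the members called lower, psme_t000260 (7741 nt) and psme_t000300 (7528 nt) led among those whose deep-class median reached 1 CPM. The CPM of psme_t000260 ran from 0.195 over 1.38 to 4.96 in the deep libraries and from 0 over 0 to 1.38 in the shallow ones, 9 of which had no count. The log2 fold change came to −2.66 ± 0.71 (SE, edgeR adjusted p = 0.0110), and the call was lost without DE replicate 5 (adjusted p = 0.156). The call of psme_t000260 was also lost in 5 of 13 alternatives, among them limma-voom and the fits within DECe and DECe Gas Phase (highest adjusted p = 0.796). The CPM of psme_t000300 ran from 0.766 over 1.24 to 2.27 in the deep and from 0 over 0 to 1.76 in the shallow libraries, with 6 at 0 counts. The log2 fold change came to −2.02 ± 0.55 (SE, edgeR adjusted p = 0.0135), and the call of psme_t000300 was lost in 6 of 13 alternatives, among them limma-voom and the fits within DECe and DECe Gas Phase (highest adjusted p = 0.414). A library with no count here is below its detection limit rather than at a measured 0.

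Abundant members were among those called. In TMM-scaled levels psme_t000146 was higher in the shallow class by 4.79 ± 0.88 (SE) on the log2 scale (edgeR adjusted p = 5.42e-04), psme_t000004 by 3.32 ± 0.68, psme_t000002 by 3.00 ± 0.65 and psme_t000041 by 2.79 ± 0.63. The call of psme_t000146 was lost with limma on log2(RPKM + 1) and within DECe Gas Phase (highest adjusted p = 0.108). The direction of psme_t000004, psme_t000002 and psme_t000041 turned when library sizes alone or RPKM were used, where their levels were lower in the shallow class. For psme_t000085 the difference was 1.03 ± 0.69 on the log2 scale (SE, edgeR adjusted p = 0.327) of TMM-scaled levels, while its median RPKM was lower in the shallow class. The same held for psme_t000006, at 0.93 ± 0.63 (SE, edgeR adjusted p = 0.335), and psme_t000005, at 1.34 ± 0.61 (SE, edgeR adjusted p = 0.149).

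Diesel exhaust was compared with filtered air in the same model without depth. Of the 178 members tested, 8 differed (4.49%), against 8.4% of all transcripts tested. Higher in DE were 6 (3.37%, against 4.26% of all) and lower were 2 (1.12%, against 4.13%). The members' median log2 fold change was 0.23, beside −0.51 over all transcripts. Its sign rests on DE replicate 5, without which the medians were −0.32 and −1.07. The medians also moved with the scaling, to 0.57 and −0.17 with DESeq2's size factors and to −1.17 and −2.0 with library sizes alone, and the members' median lay above that of all transcripts under each of the 3. The calls were 11 higher and 0 lower with DESeq2's size factors, and 0 higher and 1 lower with library sizes alone. With depth class or log10 of the total count as a covariate, no member was called. DESeq2 called 21 members (11.8%, against 8.93% of all transcripts) and limma-voom 52 (29.2%, against 43.7%). Without DE replicate 2 the count was 5, without DE replicate 6 it was 3, and without Air Control replicate 14 and DECe Gas Phase replicate 4 together 12 were called higher and 0 lower. Of the 8 members called, 4 (50%) were also called between the depth classes, which is 19.0% of the 21 called there. Over all transcripts the shares were 42.7% and 30.7%.

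The member with the smallest p-value was psme_t000181 (8370 nt). Its CPM was lowest at 1.45, 2.03 in the median and highest at 4.82 in Air Control, and ran from 5.38 over 29.1 to 39.7 in DE. All 7 DE libraries lay above all 6 Air Control libraries, and the lowest DE value was that of DE replicate 5, the deep one. In the test psme_t000181 was higher in DE by 3.44 ± 0.66 on the log2 scale (SE, edgeR adjusted p = 0.00300), and the call held without any 1 of the 26 libraries. It was lost with the replicate block and with either depth covariate. Between the depth classes psme_t000181 was also called, higher in the shallow class by 2.10 on the log2 scale (edgeR adjusted p = 6.40e-04). In RPKM the order turned, with 0.181 over 0.887 to 2.30 in Air Control and 0.280 over 0.387 to 2.78 in DE, and the log2 fold change was −0.12 with library sizes alone. In DE replicate 5, by contrast, its level was above all Air Control libraries on both scales.

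The largest log2 fold change belonged to psme_t000033, the rare member described above. Its CPM ran from 0.0398 over 0.0767 to 1.19 in Air Control and from 0.0398 over 16.1 to 50.3 in DE. The 6 shallow DE libraries lay above every Air Control library, and DE replicate 5, with 5 counts, lay at the low end of Air Control. In the test psme_t000033 was higher in DE by 6.25 ± 1.86 on the log2 scale (SE, edgeR adjusted p = 0.0381). It was −0.60 with depth class as a covariate and −2.52 in the deep libraries alone, where DE is 1 library, and the call was lost in 10 of the 26 fits that each left out 1 library.

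Lower in DE was psme_t000178 (8391 nt). Its CPM ran from 1.70 over 2.20 to 4.54 in Air Control and from 0 over 0 to 0.741 in DE, where 5 of the 7 libraries had no count. The groups did not overlap in CPM. The 5 libraries at 0 were shallow ones in which 3 counts stand for 3.91 to 7.19 CPM, more than the Air Control median, so a level like that of Air Control was not detectable there. In DE replicate 5 psme_t000178 had 93 counts, or 0.741 CPM, below the lowest Air Control library. The log2 fold change came to −2.29 ± 0.69 (SE, edgeR adjusted p = 0.0278). The call was lost without Air Control replicate 14, DE replicate 2 or DE replicate 6 (highest adjusted p of these 0.0698). It was also lost with DESeq2, DESeq2's size factors, library sizes alone, the replicate block and either depth covariate. Leaving out Air Control replicate 14 and DECe Gas Phase replicate 4 together lost it too.

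The most abundant members were not called in this comparison. psme_t000146 was 3.32 ± 1.42 higher in DE on the log2 scale of TMM-scaled counts (SE, edgeR adjusted p = 0.163), and psme_t000085 differed by −0.07 ± 0.79 (adjusted p = 0.972). The 5 longest members had adjusted p-values between 0.298 (psme_t000004) and 0.921 (psme_t000005). A p above the threshold does not show that their levels were equal.

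**Figure D4:**
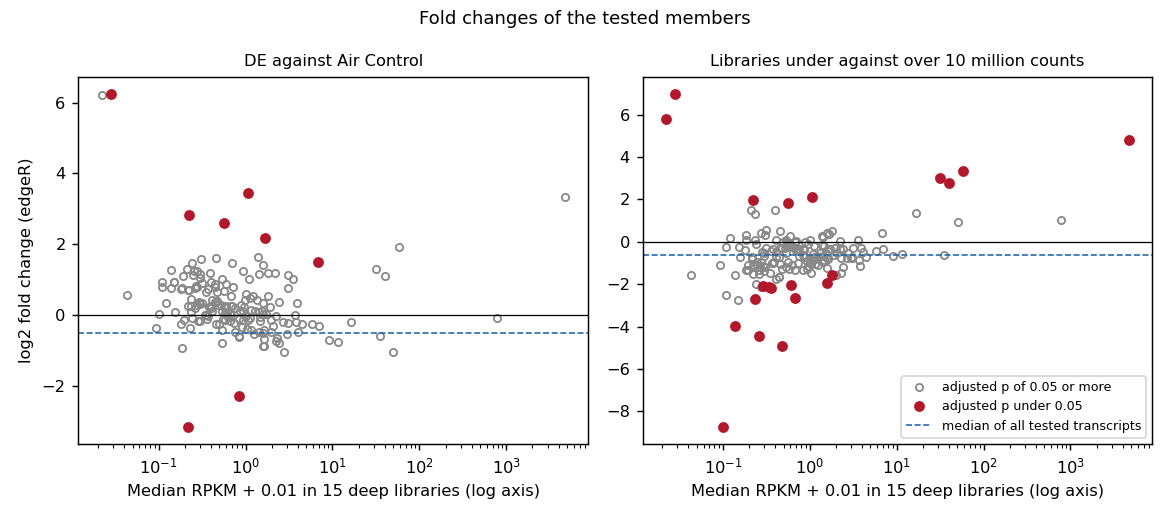
Fold changes (log2, edgeR) of the 178 tested members against their median RPKM in the 15 deep libraries (plus 0.01, log axis), for DE against Air Control and for shallow against deep libraries, with filled points for an adjusted p under 0.05 and a dashed line at the median of all tested transcripts. The called members number 8 and 21, and the largest log2 fold change in both panels, 6.25 and 6.98, is that of psme_t000033 at the low end of the level axis.

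Cerium exhaust was compared with filtered air, and no member passed the test (edgeR, 0.152% of all transcripts did). At an unadjusted p under 0.05 there were 4 members (2.25%, against 10.1% of all transcripts), DESeq2 called 2 (1.12%, against 3.59%) and limma-voom 0 (against 3.14%). The smallest adjusted p was that of psme_t000181, at 0.122, with a log2 fold change of 2.14 ± 0.62 (SE). Its CPM ran from 2.68 over 6.09 to 21.9 in DECe, and 5 of the 7 DECe libraries lay above all 6 Air Control libraries. Next was psme_t000278 (7642 nt) at 1.66 ± 0.68 (SE, adjusted p = 0.319), whose CPM ran from 0 over 0.561 to 6.27 in DECe and from 0.152 over 0.382 to 0.674 in Air Control. In psme_t000278 3 DECe libraries lay above and 3 below all Air Control libraries. In the shallow DECe libraries 3 counts stand for 0.941 to 2.75 CPM, more than the highest Air Control value. A shallow DECe library without a count is therefore below its detection limit rather than at a measured lower level.

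No member differed between the particle-filtered exhaust and air either (edgeR, 0.0594% of all transcripts). None had an unadjusted p under 0.05 (7.19% of all transcripts did), DESeq2 called 0 (2.25% of all) and limma-voom called 1 (0.562%, against 2.06%). The smallest p-values were those of psme_t000181, at a log2 fold change of 1.12 ± 0.62 (SE, adjusted p = 0.821), and of psme_t000200 (8224 nt), at 0.88 ± 0.51 (SE, adjusted p = 0.861). The CPM of psme_t000200 ran from 2.38 over 3.29 to 3.95 in DECe Gas Phase and from 1.13 over 1.84 to 2.26 in Air Control, without overlap. In RPKM psme_t000200 did overlap, at 0.089 to 1.83 and 0.103 to 1.02. These comparisons share the Air Control libraries, so their values for 1 member are not independent.

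Between cerium exhaust and diesel exhaust, no member was called (edgeR, 0.2% of all transcripts). At an unadjusted p under 0.05 there were 15 members (8.43%, against 15.1% of all transcripts). DESeq2 called 10 (5.62%, against 3.3%) and limma-voom 33 (18.5%, against 34.6%). The smallest adjusted p, 0.0870, belonged to psme_t000194 (8287 nt). Its CPM ran from 1.03 over 1.78 to 3.46 in DECe and from 1.35 over 2.61 to 28.9 in DE, and its log2 fold change of −2.41 ± 0.67 (SE) turned to 0.76 with library sizes alone. The second was psme_t000178, at 2.17 ± 0.68 (SE, adjusted p = 0.120). Its CPM ran from 0 over 1.97 to 4.41 in DECe, and 6 of the 7 DECe libraries lay above all 7 DE libraries. In the shallow DE libraries without a count of psme_t000178, 3 counts stand for 3.91 to 7.19 CPM, more than the DECe median. A level like the DECe median was therefore not detectable there.

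Whole and particle-filtered cerium exhaust gave no called member (edgeR, 0% of all transcripts, with 4.26% of them and 7 members, 3.93%, at an unadjusted p under 0.05, while DESeq2 called 0 members and 0.0111% of all, and limma-voom 0 and 0.0705%). The smallest p was that of psme_t000006, lower in DECe by a log2 fold change of −2.31 ± 0.76 (SE, adjusted p = 0.926). Its CPM ran from 198 over 293 to 407 in DECe and from 244 over 350 to 6858 in DECe Gas Phase, where the highest value was that of replicate 4. Without that library and Air Control replicate 14, the log2 fold change of psme_t000006 was −0.21. For psme_t000278 the log2 fold change was 2.09 ± 0.73 (SE, adjusted p = 0.986), and 3 DECe libraries lay above all DECe Gas Phase ones.

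Among the 15 deep libraries the members had a somewhat larger spread than transcripts at large. The median SD of log2 CPM was 0.76 over the members and 0.66 over all transcripts tested. The steadiest were psme_t000030 (13576 nt) with an SD of 0.18, psme_t000080 (10305 nt) with 0.22 and psme_t000183 (8354 nt) with 0.23. psme_t000030 ran from 8.71 over 11.4 to 14.2 CPM in the deep libraries, a range that holds libraries of all 4 groups. In the shallow libraries psme_t000030 ran from 0 over 6.43 to 21.4 CPM, with 1 library at 0 counts. The most variable were psme_t000086 (10068 nt, SD 1.68), psme_t000142 (8927 nt, SD 1.48) and psme_t000146 (SD 1.46).

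The 2 rare ones among these were seen in some plants and hardly in others at high depth. psme_t000086 ran from 0 over 0.884 to 1.78 CPM over the deep libraries, with 1 at 0 counts, and had counts in 1 of the 11 shallow ones. psme_t000142 ran from 0 over 0.668 to 3.98 CPM over the deep libraries, the highest being DE replicate 5. The 5th longest member, psme_t000012, had an SD of 0.57 and ran from 1.98 over 3.69 to 6.61 CPM in the same libraries.

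The transcripts whose pattern was most like psme_t000146 were sought over all 26 libraries. By Spearman rho of log2 CPM, the nearest members were psme_t000004 (0.865), psme_t000033 (0.865) and psme_t000002 (0.863). Over the 15 deep libraries alone these fell to 0.393, 0.589 and 0.564, so the likeness was weaker within the deep class. The nearest of all tested transcripts were outside the member set, psme_t020372 (1975 nt) at 0.979, psme_t000911 (5768 nt) at 0.971 and psme_t005877 (3400 nt) at 0.969. Over the deep libraries these remained at 0.964, 0.918 and 0.907. The median of psme_t020372 was 5175 RPKM over all libraries, 3832 in the deep and 9506 in the shallow ones, close to the levels of psme_t000146.

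The members were set beside transcripts of other lengths in 7 classes of identifier number, as a description. The share of a class detected in a shallow library, averaged over the 11, was 56.5% for the members and fell step by step over 48.9%, 47.6%, 44.0%, 40.5% and 27.9% to 23.8% in the shortest class. The members' levels were not higher, with a median RPKM of 0.621 in the deep libraries against 0.750 to 1.5 in the other classes. The shortest class (median 393 nt) had the highest share called between DE and Air Control, 24.0%, against 4.49% for the members and 3.40% to 12.2% for the classes between. Between depth classes the share called was 11.8% for the members, 26.1% for the shortest class and 9.04% to 12.3% for the rest.

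On the TMM-scaled level with all libraries, the median log2 fold change of DE against Air Control was highest in the members. It fell from 0.23 in the members over 0.10, −0.08, −0.29 and −0.62 to −0.78, and was −0.30 in the shortest class. The members' median was −0.32 without DE replicate 5, and −0.43 and −1.73 with limma on log2(RPKM + 1) and log2(RPKM + 0.1). The corresponding medians between depth classes stayed within −0.68 and −0.61 except in the shortest class, at −0.44. Both sets of medians are on TMM-scaled levels. Whether length itself plays a part in the shift was not tested.

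**Figure D5:**
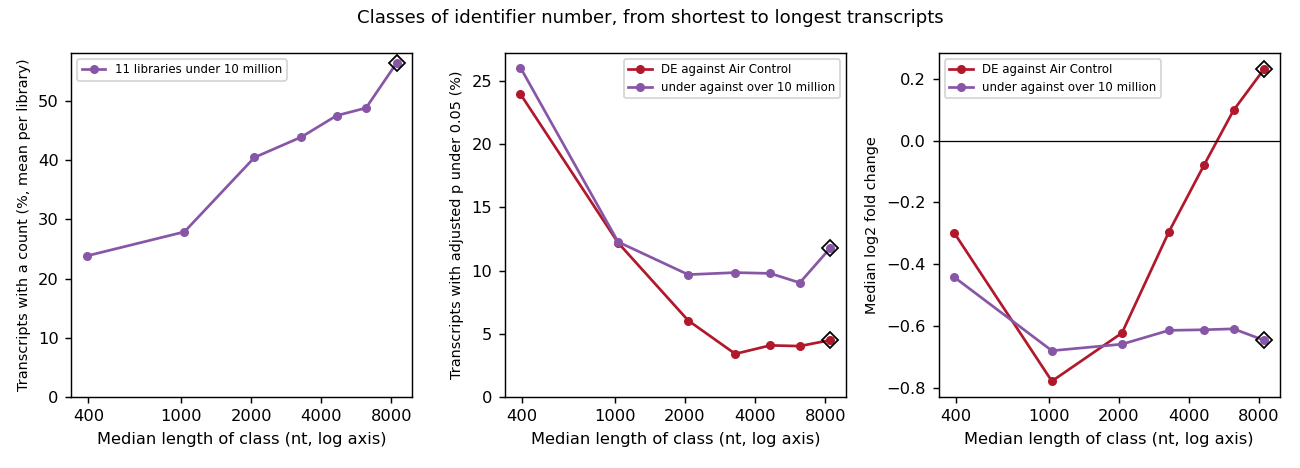
Classes of identifier number against their median length (nt, log axis), showing from left to right the mean percent of transcripts with a count in the 11 shallow libraries, the percent called at an adjusted p under 0.05 and the median log2 fold change, with an open diamond around the members. Detection rises with length to 56.5%, the share called is highest in the shortest class, and the median DE change of the members is 0.23 with all libraries (−0.32 without DE replicate 5).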

How the data were processed

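Raw counts per transcript and library were deposited, per the file headers, as whole numbers, beside a table of RPKM values that the authors had scaled to the library's column total. CASAVA 1.8.2 is named in the submitters' processing notes. Not given in the sources used here are strand, aligner, counter and how multiply matching reads were handled, so near-identical transcripts are uncertain. The test was edgeR 4.0.16 (R 4.3.3) on all 26 libraries: filterByExpr with a minimum count of 10, TMM, robust quasi-likelihood tests, adjusted by Benjamini-Hochberg over 26942 transcripts. The members' rows were then read off. The printed SE is the log2 fold change divided by the square root of F. Depth classes, divided at 10000000 counts, were tested with group in the model. The steps were tested on simulated data with the same mean composition in all libraries, apart from transcripts altered on purpose. Scaling between libraries of unlike composition was therefore not tested there. Lowest, median and highest values are printed for groups. Every pair of libraries within a group differed beyond sampling noise (chi-square divided by its degrees of freedom at least 30.8). Composition differs between libraries, so this cannot show that each is a separate plant. Each was taken as 1 replicate, as numbered in the labels.

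Alternatives were DESeq2 1.42.0 and its size factors, library sizes alone, other filters, limma-voom and limma 3.58.1 on log2(RPKM + 1) and log2(RPKM + 0.1), a replicate block, depth covariates and leaving out each library. Leaving out the 2 libraries led by psme_t000146 was added after the data were seen. The members, lists and tests were chosen with earlier results of these data known. Named were the 5 longest members, the 5 with the highest median CPM, those over 1% of a library, per comparison the 2 with the largest change each way among called members at a median of 1 CPM or more (otherwise the 2 smallest p-values), the nearest to psme_t000146, the 3 least and most variable, and the 3 either side of the count limit. psme_t000041, the list of untested members and the abundant set were named after their values were seen.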

Additional observations from a re-analysis of the deposited data

Results flagged for a closer look

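Within each group, the highest and lowest library were compared with the rest by Dixon's test in 92 sets of values, the members' summed share, the number detected and the RPKM of 21 members. It marked 33. A rate of about 1 in 20 holds for independent, normally distributed values. Here several members were chosen by their values and the sets share libraries, so no excess over chance is read from the 33. They fall mostly on 3 libraries.

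DECe Gas Phase replicate 4 stood apart in the share of counts held by the members (45.6%, the next library 9.07%). In the same library the RPKM was 189.9 for psme_t000002, 379 for psme_t000004, 62.8 for psme_t000005, 224 for psme_t000006, 45315 for psme_t000146 and 3517 for psme_t000085. Air Control replicate 14 stood apart in the same share (34.9%, the next 6.80%). Its RPKM was 101.5 for psme_t000002, 176 for psme_t000004 and 36980 for psme_t000146, and among rare members 0.067 for psme_t000033 and 0.083 for psme_t000099.

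DE replicate 5, the only deep DE library, was highest within DE. Among abundant members its RPKM was 43.2 for psme_t000002, 29.5 for psme_t000005, 80.9 for psme_t000006 and 2082 for psme_t000085. Among the others its RPKM was 1.68 for psme_t000012, 0.382 for psme_t000178, 0.754 for psme_t000278, 1.06 for psme_t000200 and 2.78 for psme_t000260. It was also 1.31 for psme_t000300, 3.41 for psme_t000030, 3.33 for psme_t000080, 2.34 for psme_t000183, 1.93 for psme_t000142 and 0.764 for psme_t000086. The other 6 DE libraries were shallow.

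The other marks were scattered. DECe Gas Phase replicate 5 had the fewest members with a count in its group (115, the next 166). DECe Gas Phase replicate 7 had 0.356 RPKM for psme_t000278 and 0.612 for psme_t000142. psme_t000099 stood at 0.699 RPKM in DE replicate 4 and at 0.333 in DECe Gas Phase replicate 5.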

How the results depend on the processing

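Of the recomputed counts of members called, 204 stayed within 1.5 times and 30 did not. In all comparisons but DE against Air Control and the depth classes the main count was 0, and 0 again was taken as staying. The 204 therefore does not measure how stable the calls were. For DE against Air Control, the 8 became 1 with library sizes alone, 21 with DESeq2, 52 with limma-voom, 48 with limma on log2(RPKM + 1), 112 on log2(RPKM + 0.1), and 0 in the deep libraries alone or with either depth covariate. Leaving out 1 library gave 3 to 10, with 5 without DE replicate 2 and 3 without DE replicate 6. For DECe against DE, the 0 became 1 with DESeq2's size factors, 10 with DESeq2, 33 with limma-voom and 4 on log2(RPKM + 0.1), and leaving out 1 library gave 0 to 1, the 1 without DE replicate 5 or DE replicate 12. DECe against Air Control gave 2 with DESeq2, and DECe Gas Phase against Air Control 1 with limma-voom, both against 0. For the depth classes, the 21 became 175 with library sizes alone, 9 at a mean of at least 50 counts, 172 on log2(RPKM + 1), 176 on log2(RPKM + 0.1), 35 without the 2 libraries led by psme_t000146, and 4, 1 and 5 within DECe, within DECe Gas Phase and within both. The last 3 have fewer samples. Leaving out 1 library gave 10 to 36, with 10 without DE replicate 5 and 36 without DECe Gas Phase replicate 4. For the other moves the cause was not tested.

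With the replicate block, 1 member was called for DE against Air Control and 11 between depth classes. Deviations of 18 same-number pairs correlated at −0.49 to 0.30, 4 of them over 0.1. Of 19 libraries, 1 correlated best with its own number. No label states that a number marks a shared plant, tray or day. These correlations cannot decide it, since depth also differs within some pairs.

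Of the members called for DE against Air Control, all 6 higher ones turned under some alternative, 5 of them with library sizes alone and on both RPKM scales, and 1 of the 2 lower ones did. Between depth classes 6 of the 9 called higher turned under the same 3 scalings and 0 of the 12 called lower did. Under each of these scalings, 3 of the 178 members tested had a positive log2 fold change in both comparisons. A member called lower could therefore hardly turn there, and the 0 of 12 says little about stability. Members named by comparison reversed as follows. For DE against Air Control, psme_t000033 fell to −2.52 in the deep libraries alone and −0.60 with depth class as a covariate, and psme_t000181 to −0.12 with library sizes alone, −0.10 on log2(RPKM + 1) and −0.23 on log2(RPKM + 0.1). For DECe Gas Phase against Air Control, psme_t000181 gave −0.054, −0.052 and −0.16 under the same 3. For DECe against DE, psme_t000194 gave 0.76, 0.17 and 0.62. Depth limits what a missing count can show in the 11 shallow libraries.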
